A study of Mus musculus with 2 samples.

Results

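Liver sinusoidal endothelial cells were described in a single-cell RNA sequencing library of sorted mouse liver cells. They were chosen by their RNA: of the barcodes with at least 500 genes, at least 1000 gene UMIs (unique molecules) and under 20% mitochondrial UMIs, those in which Clec4g, Ptprb, Kdr, Stab2, Fcgr2b, Gpihbp1, Aqp1 and Egfl7 together took at least 0.3% of gene UMIs, with at least 4 of the 8 detected, were kept. This gave 761 endothelial barcodes of 10220 that passed the filters, or 7.45% (exact binomial 95% interval 6.94 to 7.97). The other 9459 barcodes serve as the comparison, and since the 8 genes set the classes, differences between the classes are a description with no test.

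Sinusoidal endothelial cells line the blood channels of the liver lobule. They lack a continuous basement membrane, are pierced by open pores, and clear waste proteins from blood through scavenger receptors such as stabilins and the mannose receptor. They also instruct the neighbouring hepatocytes: near the central vein, endothelial Wnt ligands and R-spondin 3 maintain the pericentral hepatocyte programme, while endothelial cells near the portal tract carry more Notch ligand and ephrin. The transcription factor GATA4 is needed for this specialised state, and its loss turns sinusoids into continuous capillaries.

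The study asked how hepatocytes respond to oncogenic NRAS and livers were taken at day 6. Plasmid was delivered by hydrodynamic injection into the tail vein, in which a large volume given quickly carries DNA into some hepatocytes. C57BL/6 (BL6) female mice, injected at 6 to 8 weeks of age per the study's methods, received a transposon with the CAGGS promoter, which is active in many cell types, carrying NRAS(G12V) and mVenus, a yellow fluorescent protein, in 2 mice, or NRAS(G12V/D38A) and mVenus in the 1 control mouse. All 3 mice thus carried a transgene and received transposase plasmid, and none was left uninjected. A hashtag antibody marked the liver cells of each animal before they were sorted for mVenus, pooled and sequenced together. The samples are labelled as hepatocytes, so the endothelial barcodes came from a sort that was not aimed at endothelium.

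Mice were told apart by the 15-base DNA tag of the hashtag antibody. The tags are shown because every comparison between mice rests on them.
hashtag 1: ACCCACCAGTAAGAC
hashtag 2: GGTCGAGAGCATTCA
hashtag 3: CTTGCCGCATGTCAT
The deposited table gives hashtag 1 to the NRAS(G12V/D38A) mouse and hashtags 2 and 3 to the NRAS(G12V) mice, whereas in the study's methods hashtag 3 marks the NRAS(G12V/D38A) mouse and hashtags 1 and 2 the NRAS(G12V) mice. Only hashtag 2 has the same genotype in both. Mice are therefore named by hashtag, and a direction between genotypes is stated only for a named pairing.

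The gene library held 13151 barcodes and the hashtag library 13150, of which 13141 were shared. The median endothelial barcode held 3514 UMIs and 1735 genes, against 4252 UMIs and 1449 genes in the other barcodes, and mitochondrial genes took 4.60% of its UMIs against 0.666%. Within hashtags 1, 2 and 3 the mitochondrial medians were 3.54%, 3.91% and 4.92% in endothelial against 2.57%, 7.33% and 3.95% in other barcodes, so the direction turned in hashtag 2, and other barcodes negative for every tag were at 0.323%. Levels are given as CPM, counts of a gene per 1000000 gene UMIs, with the barcodes of a class summed. Intervals on them are exact Poisson 95% intervals, and they cover counting error only, not the spread between mice.

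Endothelial barcodes were spread very unevenly over the mice. Among barcodes called for 1 tag, 36 of 830 (4.34%, exact binomial interval 3.06 to 5.95) were endothelial in hashtag 1, 56 of 1970 (2.84%, 2.15 to 3.68) in hashtag 2 and 615 of 985 (62.4%, 59.3 to 65.5) in hashtag 3. Hashtag 3 alone supplied 80.8% of all endothelial barcodes, and 19 endothelial barcodes were hashtag doublets and 35 were negative for every tag. Negative barcodes made up 6263 of all 10220, so the shares describe the called barcodes. With a fixed rule in place of the statistical call (at least 10 hashtag UMIs, at least 80% from 1 tag) the shares were 2.07%, 3.48% and 66.8%, so hashtag 3 stood apart in both, and the order of hashtags 1 and 2 turned. Endothelial barcodes called for hashtags 1, 2 and 3 had medians of 129.5, 89.5 and 72.0 UMIs of their own tag. Hashtag 3 is a G12V mouse in the deposited pairing and the D38A mouse in the methods' pairing, so the genotype cannot be told apart from the animal here.

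The 8 genes of the rule cover the surface of a sinusoidal endothelial cell. Kdr encodes VEGF receptor 2 and Ptprb the phosphatase that restrains the angiopoietin receptor. Stab2 is a stabilin that clears hyaluronan, Clec4g a C-type lectin of liver and lymph node sinusoids, and Fcgr2b the inhibitory Fc receptor that takes up immune complexes. Gpihbp1 carries lipoprotein lipase to the vessel surface, Aqp1 is a water channel, and Egfl7 is a protein secreted by endothelium. Of these genes, 6 had an entry among the RefSeq promoter windows of build GRCm38.p6, which run from 250 bases before to 50 bases after a transcript start. Those of Gpihbp1 and Ptprb were not used here.

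Windows of 4 of the 6 matched rule genes are shown so that the start of genes that share this cell type can be compared, with capitals marking 2 short motifs. The letters AGGAAG, or CTTCCT on the other strand, form the core of sites bound by ETS factors such as ERG and FLI1. The letters AGATAA, or TTATCT on the other strand, form the core of sites bound by GATA factors. All 4 read 5′ to 3′ on the strand of the gene.
Clec4g, chr8:3720602-3720901, minus strand: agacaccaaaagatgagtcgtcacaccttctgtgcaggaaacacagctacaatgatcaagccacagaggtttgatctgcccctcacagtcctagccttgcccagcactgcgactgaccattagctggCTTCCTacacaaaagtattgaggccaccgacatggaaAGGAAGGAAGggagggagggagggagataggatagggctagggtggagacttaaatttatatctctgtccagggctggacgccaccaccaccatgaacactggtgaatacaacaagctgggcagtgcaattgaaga
Egfl7, the second of its 3 starts, chr2:26583615-26583914, plus strand: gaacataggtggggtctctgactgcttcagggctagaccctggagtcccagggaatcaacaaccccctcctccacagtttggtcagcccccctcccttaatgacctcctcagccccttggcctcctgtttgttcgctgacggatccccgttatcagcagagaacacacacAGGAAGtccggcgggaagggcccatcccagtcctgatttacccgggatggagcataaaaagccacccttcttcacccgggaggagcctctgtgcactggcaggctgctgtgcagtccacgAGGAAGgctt
Stab2, chr10:87007893-87008192, minus strand: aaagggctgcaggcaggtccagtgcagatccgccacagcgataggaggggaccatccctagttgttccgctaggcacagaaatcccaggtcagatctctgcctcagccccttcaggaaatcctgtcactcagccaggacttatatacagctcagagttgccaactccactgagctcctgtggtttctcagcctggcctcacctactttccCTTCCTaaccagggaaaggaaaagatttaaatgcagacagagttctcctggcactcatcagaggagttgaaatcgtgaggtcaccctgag
Kdr, chr5:75978406-75978705, minus strand: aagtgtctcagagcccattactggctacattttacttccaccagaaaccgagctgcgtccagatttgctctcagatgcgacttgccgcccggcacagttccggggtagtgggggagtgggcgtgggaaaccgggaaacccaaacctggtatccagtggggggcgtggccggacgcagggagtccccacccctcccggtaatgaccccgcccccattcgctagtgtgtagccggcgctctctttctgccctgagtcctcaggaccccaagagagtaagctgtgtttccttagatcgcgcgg
The ETS letters were found on either strand in the windows of 4 of the 6 rule genes, and the GATA letters in 0 of 6. In the Clec4g window the ETS letters lie at 3 places, of which 2 overlap. Over the 19 genes with a window among the 8 rule genes and the 20 genes described next, 9 (47.4%) held the ETS letters, beside 38.4% of all 27025 genes with a window, and 2 (10.5%) held the GATA letters, beside 12.7%. These matches describe letters in the windows and were not tested.

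Each rule gene was, by construction, abundant in endothelial barcodes and scarce elsewhere. Clec4g was at 2734 CPM (2677 to 2791) against 5.32 CPM in the other barcodes, with 2038, 3273 and 2819.8 CPM in the endothelial barcodes of hashtags 1, 2 and 3. Stab2 was at 652 CPM (625 to 680.3) against 1.02 CPM, and by hashtag at 368, 612 and 699 CPM. Kdr was at 921, 1415 and 1654 CPM and Aqp1 at 1529, 2437 and 2821 CPM. All 8 genes were lowest in hashtag 1, whose 36 endothelial barcodes gave a summed share of the rule genes of 0.895% of UMIs, against 1.43% and 1.51% in hashtags 2 and 3. In the other barcodes the same share was 0.00370% in hashtag 1, 0.00188% in hashtag 2 and 0.0389% in hashtag 3, highest in the mouse with the most endothelial barcodes.

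All 8 genes were detected in 530 passing barcodes, of which 520 were endothelial. Of the other endothelial barcodes, 7 genes were detected in 133, 6 in 56, 5 in 35 and 4 in 17, and the median rule share was 1.62% with a highest value of 3.64%. Just inside the threshold the lowest barcodes held 0.309%, 0.315% and 0.326%, and just below it the highest barcodes with at least 4 genes held 0.297% and 0.282%. Share alone left out 75 barcodes with at least 4 genes detected, and 74 endothelial barcodes held under 0.6%. A further 9 barcodes reached 0.3% with only 3 genes detected, at a median depth of 1422 UMIs. Hashtag doublets were kept among the endothelial barcodes, and doublets within a mouse could not be seen.

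**Figure D1:**
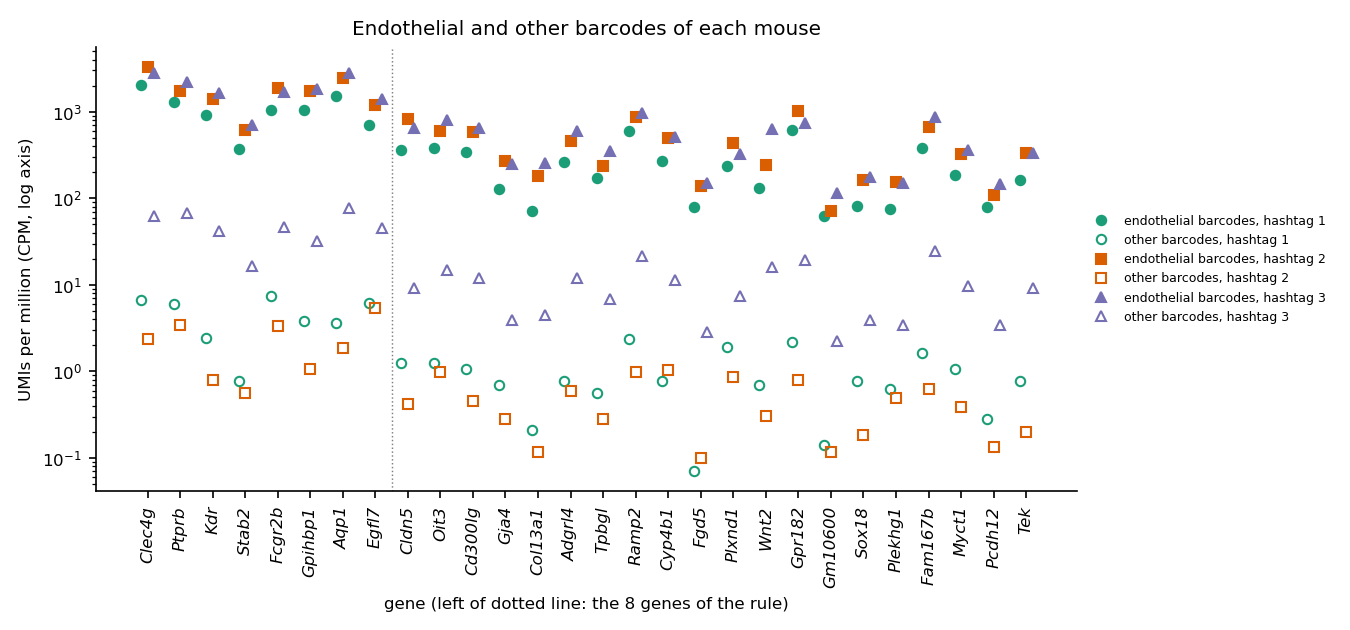
Levels of the 8 rule genes and of the 20 genes outside the rule that stood furthest apart, in CPM on a log axis. Filled symbols are endothelial barcodes and open symbols other barcodes of the same mouse, with 36, 56 and 615 endothelial barcodes in hashtags 1, 2 and 3. By the choice of genes, filled symbols lie above the open symbols of the same gene, and the open symbols of hashtag 3 lie highest.

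Outside the rule, genes known from vascular endothelium such as Cldn5, Ramp2 and Tek were among those furthest apart. Of 9058 genes at 10 CPM or more in either class, 1720 (19.0%) were at least 2-fold higher in the endothelial barcodes in each of the 3 hashtags and 382 (4.22%) at least 2-fold lower. The median log2 ratio over all these genes was 0.67, so the classes are not centred on each other. With TMM scaling, which moved the median over hashtags from 0.48 to -0.13, the counts were 1005 (11.1%) higher and 651 (7.19%) lower, and the share of calls that were higher fell from 81.8% to 60.7%. The 20 genes named here had smallest log2 ratios over the hashtags of 5.07 to 6.00, far from either centre.

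Several of these 20 encode junction proteins, receptors and regulators known from endothelium. Cldn5, the claudin of endothelial tight junctions, was at 365, 832 and 644 CPM in endothelial barcodes of hashtags 1, 2 and 3 and at 1.27, 0.419 and 9.08 CPM in the other barcodes of the same mice. The 20 genes were chosen by the size of this gap within each mouse, so the gap is a description of the choice. The adrenomedullin receptor partner Ramp2 was at 604, 874 and 957 CPM, the chemokine scavenging receptor Gpr182 at 615, 1018 and 744 CPM, and Oit3, a gene typical of liver sinusoids, at 380.3, 599.7 and 807 CPM. Tek, the angiopoietin receptor, was at 161, 334 and 338 CPM, and the gap junction gene Gja4 at 129, 270.3 and 251 CPM.

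Sox18, a transcription factor of endothelial fate, was at 82.3, 165 and 176 CPM in the endothelial barcodes of hashtags 1, 2 and 3. Plxnd1, a semaphorin receptor of vessels, was at 235, 435 and 324 CPM, and the adhesion G protein-coupled receptor Adgrl4 at 263, 460.3 and 598 CPM. Wnt2, a ligand made by endothelium around the central vein, differed most between mice within this group, at 133, 245 and 627 CPM. The remaining 10 genes were Cd300lg, Col13a1, Tpbgl, Cyp4b1, Fgd5, Gm10600, Plekhg1, Fam167b, Myct1 and Pcdh12, with pooled levels from 103 CPM for Gm10600 to 804 CPM for Fam167b. All 20 of these genes were lowest in hashtag 1 among the endothelial barcodes.

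Lists of genes of known function were then counted, with 19.0% of all genes higher and 4.22% lower as the background. Of the pan-endothelial genes, 13 of 14 were higher in each hashtag, with a median log2 ratio of 7.71. Pecam1 was at 465 against 1.42 CPM, Cdh5, the cadherin of endothelial junctions, at 651 against 1.63 CPM, and Eng, a co-receptor for TGF-beta family ligands, at 1523 against 2.79 CPM. Acvrl1 was the exception, at 19.6, 33.8 and 26.7 CPM in endothelial and 12.1, 4.71 and 7.95 CPM in other barcodes of hashtags 1, 2 and 3. The label of endothelium was thus matched by 13 of 14 genes that the rule did not use, although these genes come from the same barcodes and are no independent test.

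Genes of sinusoidal identity were mostly higher as well. In each hashtag 11 of 14 were higher and 1, the endocytic receptor gene Lrp1, lower, with a median log2 ratio of 5.44. The scavenger receptor gene Stab1 was at 392, 731 and 778 CPM, the mannose receptor gene Mrc1 at 698, 1106 and 1231 CPM and the hyaluronan receptor gene Lyve1 at 223, 579 and 425 CPM in hashtags 1, 2 and 3. Dnase1l3, which digests DNA in blood, was at 2415 against 47.4 CPM, and F8, which encodes clotting factor VIII, at 919 against 2.30 CPM. Bmp2 and, from the angiocrine list, Bmp6, through which endothelium sets hepatocyte hepcidin, were at 1055 and 112 CPM against 5.22 and 1.28 CPM. Ctsl and Scarb1 had log2 ratios of 0.98 and 0.58, beside a median of 0.67 over all compared genes, and did not reach 2-fold in each hashtag.

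Some markers of continuous or large vessels were present as well. Of the 10 genes of that list 6 were abundant enough to compare, and 5 of the 6 were higher. The basement membrane collagen genes Col4a1 and Col4a2 were at 476 and 269 CPM. Plvap, which encodes the diaphragm protein of capillary pores, was at 207 CPM, against 0 CPM in T and NK barcodes. Cd34, a marker of continuous capillaries, was at 31.4, 46.5 and 7.46 CPM in hashtags 1, 2 and 3, and Ly6c1, Esm1 and Apln were at 1.84, 3.06 and 0.306 CPM.

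All 14 transcription factors on the endothelial list were higher in each hashtag under the scaling by total UMIs, with a median log2 ratio of 4.99. With TMM scaling 12 of the 14 were, Klf2 and Klf4 being the others. Gata4 was at 74.5, 165 and 137 CPM in hashtags 1, 2 and 3 against 0.773, 0.923 and 8.52 CPM in other barcodes. Maf, a regulator of sinusoidal differentiation, was at 972, 1487 and 1568 CPM, Meis2 at 251, 465 and 501 CPM and Nr2f2, a factor of venous fate, at 345, 393 and 408 CPM. The ETS family genes Fli1 and Erg were at 88.2 and 17.5 CPM, against 1.58 and 0.0560 CPM. Klf2, the shear stress factor, was at 752 against 66.1 CPM, and the arterial factor gene Sox17 at 53.3 against 0.152 CPM. In T and NK and in B barcodes Gata4 had 0 UMIs.

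Receptors through which endothelium senses its surroundings were also higher. In the VEGF, semaphorin and Notch list 9 of 10 compared genes were at least 2-fold higher in each hashtag, with a median log2 ratio of 5.09. Flt1 and Flt4, VEGF receptors 1 and 3, were at 540.5 and 419.7 CPM, and their co-receptor Nrp1 at 837 CPM, against 14.1 CPM in T and NK barcodes. Notch1 was at 94.1, 182 and 183 CPM in hashtags 1, 2 and 3. The Notch target Hes1 was at 94.7 against 75.5 CPM, while Hey1 and Heyl, targets of Notch in arteries, had 5 and 0 UMIs in all endothelial barcodes.

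Secreted factors were compared as a list of 10 angiocrine genes, of which 8 were higher. Besides Wnt2 and the Bmp genes these were Wnt9b at 44.1 CPM, Rspo3 at 413 CPM, Hgf, the hepatocyte mitogen, at 77.8 CPM, the Notch ligand gene Dll4 at 32.2 CPM and the laminin gene Lama4 at 66.2 CPM. In the other barcodes each of these 5 was at 2.23 CPM or less. Jag1 and Angpt2 were at 9.80 and 10.1 CPM against 18.0 and 10.7 CPM, and neither reached 2-fold in each hashtag.

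Genes of lipid handling and clotting were higher in part, while those of leukocyte contact went both ways. Of the caveolae and lipid list, 5 of 7 were higher (4 with TMM scaling, without Cav1). Fabp4, a fatty acid chaperone of capillaries, was at 1568, 1862 and 2933 CPM and Cavin2 at 380.3, 642 and 790.0 CPM in hashtags 1, 2 and 3, while Cav1 was at 32.5 CPM and Fabp5 at 761 against 1632 CPM. Of the haemostasis list 6 of 9 were higher, among them Tfpi, the inhibitor of tissue factor, at 348 CPM, Thbd, thrombomodulin, at 118 CPM and Nos3, endothelial nitric oxide synthase, at 58.5 CPM. Plat, tissue plasminogen activator, was lower, with 1 UMI in endothelial barcodes. Among 11 adhesion and chemokine genes 3 were higher (2 with TMM scaling), namely Icam1, Icam2 and Selp, and 1, Ccl2, was lower (4 with TMM scaling). Of all genes 19.0% were higher and 4.22% lower, or 11.1% and 7.19% with TMM scaling. Vcam1 was at 130.2 against 80.6 CPM and Cxcl10 at 219.5, 984 and 387 CPM by hashtag.

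Antigen presentation and stress genes were counted in the same way. Of 8 MHC class I genes 0 were 2-fold apart in each hashtag, with H2-K1 at 1589 against 928 CPM and B2m at 3520.0 against 2765 CPM, and the direction of both turned with TMM scaling. Of 4 compared MHC class II genes 0 were apart with scaling by total UMIs and 4, H2-Aa, H2-Ab1, H2-Eb1 and Cd74, were lower with TMM scaling, with Cd74 at 4653, 1744 and 308 CPM in endothelial and 6079, 2158 and 2487 CPM in other barcodes of hashtags 1, 2 and 3. Of 10 interferon-induced genes 4 were higher (2 with TMM scaling), namely Ifit2, Rsad2, Oasl2 and Bst2, the last at 823, 942 and 1085 CPM. Of 12 immediate early and heat shock genes 0 were apart (Atf3 was lower with TMM scaling), with Fos at 333 against 568 CPM. Of 7 senescence and secretory genes 0 were higher and 3 lower, among them Ccl2 and Cdkn2b, the gene of the cell cycle inhibitor p15, at 3.92, 0 and 10.6 CPM against 151, 157 and 60.2 CPM. Cdkn1a, the gene of p21, was at 66.6, 122 and 65.2 CPM against 117, 109 and 59.0 CPM. Cdkn2a was at 3.92, 21.1 and 11.4 CPM, from 1, 5 and 29 UMIs, against 6.54, 2.73 and 3.97 CPM, so hashtag 1 went the other way.

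**Figure D2:**
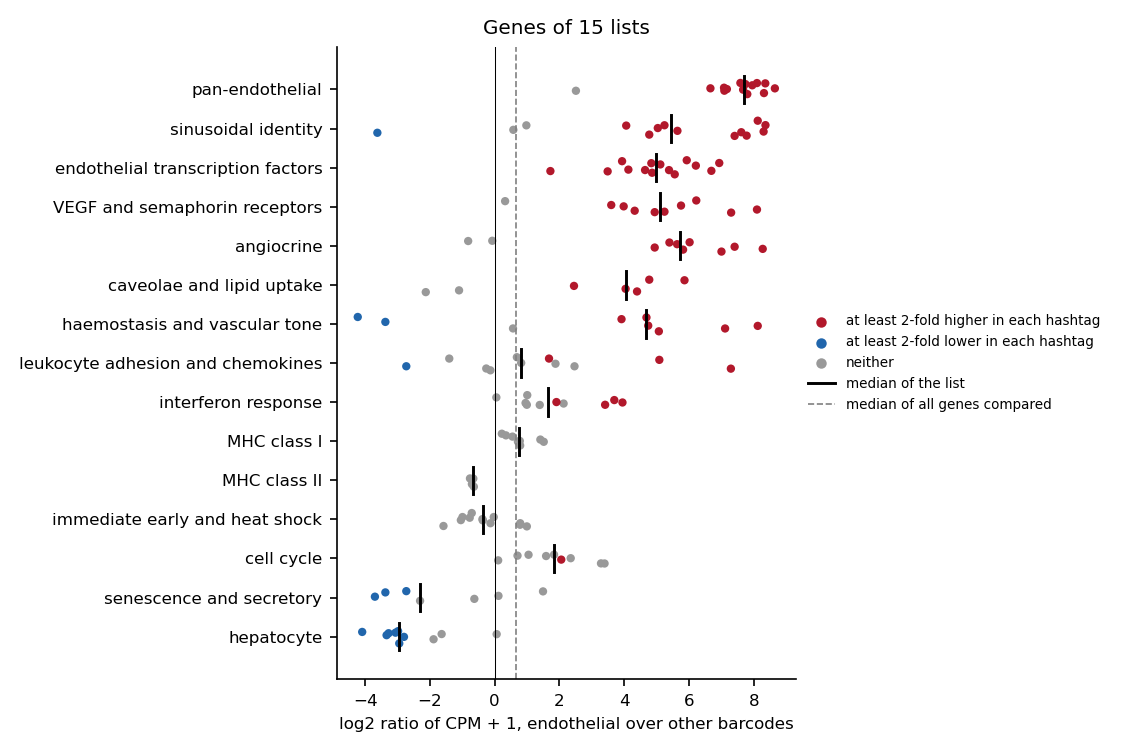
Each point is 1 gene of a list, placed by its log2 ratio of endothelial over other barcodes on the CPM + 1 scale, pooled over all barcodes. Red and blue mark genes at least 2-fold apart in each of the 3 hashtags, black bars list medians and the dashed line the median of all 9058 genes. The endothelial lists lie to the right at medians of 4.04 to 7.71, and the hepatocyte list to the left at -2.96.

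The 10 genes furthest below the other barcodes were Tm4sf4, Wfdc2, S100a6, Igfbp3, Cdh17, Clu, Itih5, Tspan8, F12 and Gm3776. Tm4sf4, which encodes a tetraspan membrane protein, was at 47.0, 59.1 and 78.1 CPM in endothelial against 1817, 1824 and 743 CPM in other barcodes of hashtags 1, 2 and 3. Clu, clusterin, was at 466, 367 and 481 against 6735, 6563 and 3732 CPM, and F12, coagulation factor XII, at 3.92, 4.22 and 8.64 against 119, 163 and 71.5 CPM. For all 10 genes the smallest difference was seen in hashtag 3. Against only those other barcodes that met the gate of an immune type, Clu and Tspan8 were level with the endothelial barcodes, at mean log2 ratios of 0.01 and 0.01.

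RNA of hepatocytes was present in the endothelial barcodes of each mouse. The 10 hepatocyte genes took 1.16% of endothelial UMIs and 8.55% of the UMIs of other barcodes, and 1.19, 1.00 and 1.19% in the endothelial barcodes of hashtags 1, 2 and 3. Alb, which encodes albumin, was at 3555 CPM in endothelial barcodes and 24753 CPM in the other barcodes. The list took 0.907% in T and NK barcodes, 1.26% in B barcodes and 0.353% in dendritic barcodes, which should not express these genes. With these classes summed, the share was 1.19% in endothelial against 0.548% in immune barcodes of hashtag 1, 1.00% against 0.484% in hashtag 2 and 1.19% against 0.799% in hashtag 3, higher in endothelial barcodes in each mouse. The immune classes' median depths were 3175, 2056 and 9075 UMIs. A total of 27 endothelial barcodes had a higher hepatocyte share than the median other barcode, 3.12%, and 3 were above 10%.

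Several defining markers of other non-parenchymal cells were at or near 0, while other genes of the same lists were not. Of the Kupffer cell genes Marco had 0 UMIs, Clec4f was at 0.613 CPM and Timd4 at 0.919 CPM, while C1qb was at 19.6, 270.3 and 65.2 CPM in hashtags 1, 2 and 3 and at 5589 CPM in barcodes that met the macrophage gate. Of the stellate cell genes Des had 0 UMIs, and Dcn and Lrat were at 3.37 and 0.613 CPM, while Ecm1 was at 91.6 CPM against 166 CPM in other barcodes and held 299 of the 336 UMIs of that list. Of the biliary genes Krt19 had 0 UMIs, Sox9 was at 2.45 against 80.5 CPM and Spp1, osteopontin, at 429.5 against 5609 CPM, beside 539.7 CPM in T and NK barcodes. Of the lymphatic vessel genes Pdpn had 0 UMIs, Prox1, which hepatocytes also express, was at 11.9 against 57.5 CPM, and Ccl21a at 12.9 against 0.400 CPM, its 42 UMIs in 2 endothelial barcodes. The summed T and NK and B lists took 0.00545% and 0.00466% of endothelial UMIs. A total of 14 endothelial barcodes met the gate of another type as well, 3 macrophage, 1 dendritic, 3 plasmacytoid dendritic, 3 T and NK and 4 B. Within the dendritic list Zbtb46 was higher in endothelial barcodes, at 91.3 CPM, and within the plasmacytoid list Tcf4 was, at 429 CPM.

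Endothelial barcodes varied along the axis from portal tract to central vein. A barcode was counted as pericentral when it held at least 2 UMIs of Wnt2, Wnt9b, Rspo3, Kit, Thbd, Cdh13 and Dkk3 and more of these than of Dll4, Efnb2, Ltbp4, Ntn4, Adgrg6, Msr1 and Efnb1, and as periportal for the reverse. Of the 761 barcodes, 453 (59.5%) had the pericentral profile, 188 (24.7%) the periportal profile and 120 neither, the last with a median depth of only 2237.5 UMIs. The mice did not have the same shares. Pericentral barcodes were 12 of 36 (33.3%, 18.6 to 51.0) in hashtag 1, 16 of 56 (28.6%, 17.3 to 42.2) in hashtag 2 and 391 of 615 (63.6%, 59.6 to 67.4) in hashtag 3. Periportal barcodes were 15 of 36 (41.7%, 25.5 to 59.2), 30 of 56 (53.6%, 39.7 to 67.0) and 135 of 615 (22.0%, 18.7 to 25.4). Hashtag 3 thus had the highest pericentral and the lowest periportal share. The intervals cover counting over barcodes within 1 mouse and not the spread between mice.

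Since such shares can move with depth, each barcode was also thinned to 1000 UMIs and assigned by which list had more UMIs. The pericentral share was then 16.7%, 30.4% and 53.0%, and the periportal share 44.4%, 32.1% and 19.8% in hashtags 1, 2 and 3. Hashtag 3 kept the highest pericentral and the lowest periportal share. The list genes used for the assignment are a description only: Wnt2 was at 798 and 161 CPM in pericentral and periportal barcodes, Kit at 390.3 and 87.0 CPM, Ltbp4 at 218 and 559 CPM and Msr1 at 25.7 and 239 CPM.

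Genes outside both lists showed what else went with these profiles. Among 3680 genes at 50 CPM or more in either profile, 36 were at least 2-fold higher in pericentral and 23 in periportal barcodes. The genes named here were chosen after their values were seen. Fabp4 was at 3557 against 1373 CPM, Plvap at 273 against 102 CPM, Olfm1 at 190.4 against 58.7 CPM and Vwf, von Willebrand factor, at 106 against 7.61 CPM. The 65 barcodes with at least 5 UMIs of Rspo3, a gene of the pericentral list, held 203 of the 218 Vwf UMIs. The Vwf difference thus rested mostly on that subset, described below. The homeobox gene Lhx6 was at 69.5 against 1.09 CPM, with 1 UMI in the periportal sum. Ly6a, an antigen of capillary and stem cells, was higher in periportal barcodes, at 663 against 255 CPM, as was Cd36, the fatty acid translocase, at 608 against 322 CPM. The scavenging core differed little: Clec4g was at 2765 and 2815 CPM, Mrc1 at 1202 and 1093 CPM and Dnase1l3 at 2493 and 2384 CPM. Fabp4, Plvap, Olfm1, Vwf, Lhx6, Ly6a and Cd36 kept their direction within hashtag 3 and within hashtags 1 and 2 together. Some other genes rested on 1 barcode or on some of the mice. Of the 738 Hbb-bs UMIs in pericentral barcodes, 735 were in 1 barcode. Prc1, a gene of cell division, had a log2 ratio of pericentral over periportal barcodes of 4.12 in hashtag 3 and -5.73 in hashtags 1 and 2. The immune cell genes C1qa, C1qc, Ccl4, Bcl2a1b and Bcl2a1d, higher in the periportal sum, had the opposite direction in hashtag 3, at log2 ratios of 1.18, 0.48, 0.51, 0.56 and 0.35.

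**Figure D3:**
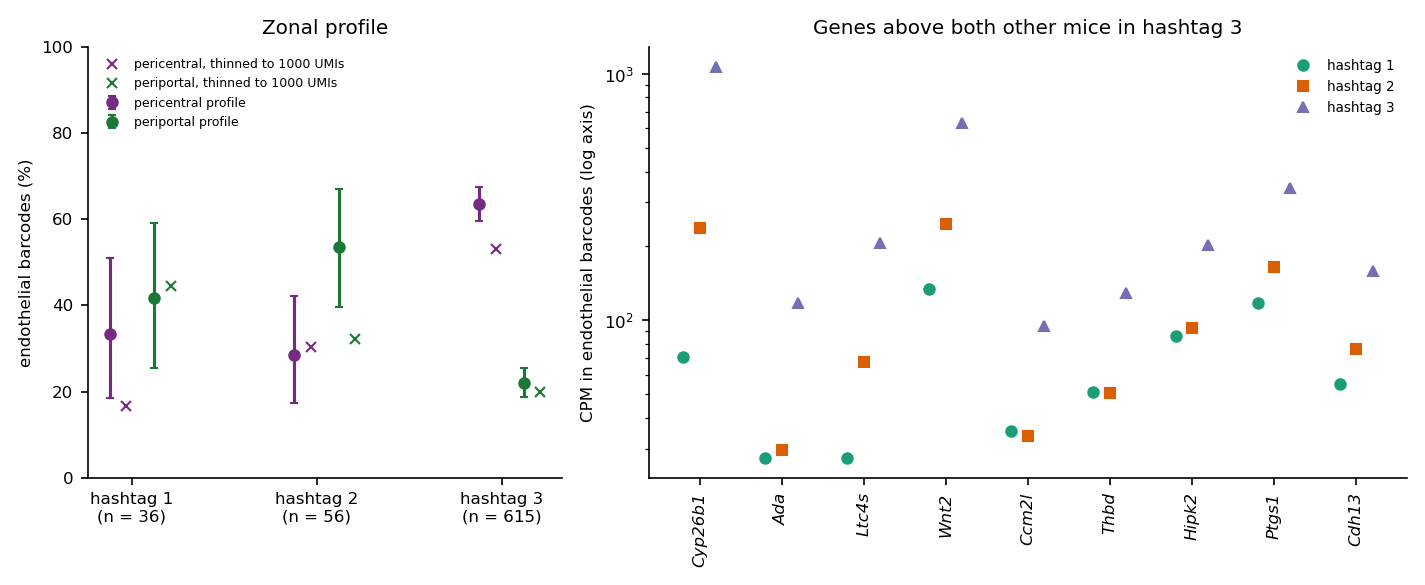
Left, the share of endothelial barcodes with the pericentral (purple) and periportal (green) profile in each mouse, with exact binomial 95% intervals for the unthinned values and crosses for values thinned to 1000 UMIs. Right, the CPM on a log axis of 9 genes at least 2-fold above both other mice in hashtag 3 that had a UMI in at least 30% of its endothelial barcodes. Hashtag 3 lies highest in the pericentral share and, by the choice of genes, in every gene on the right, with Cyp26b1 at 70.6, 236 and 1068 CPM.

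A small subset carried Rspo3 at a far higher level than the rest. Rspo3, the R-spondin that amplifies Wnt signals, had 1349 UMIs in all endothelial barcodes, and 1249 of them lay in the 65 barcodes with at least 5 UMIs, while 635 barcodes had none. Median depths of the 3 groups were 3678, 3902 and 3466 UMIs for at least 5, 1 to 4 and no Rspo3 UMIs. In the 65 barcodes Vwf was at 643 CPM against 5.19 CPM in barcodes without Rspo3, and Selp, the P-selectin of venous endothelium, at 349 CPM against 7.05 CPM. Wnt9b was at 269 CPM against 13.7 CPM, Cdh13 at 479 CPM against 91.3 CPM, Plvap at 681 CPM against 146 CPM and Fabp4 at 8217 CPM against 1913 CPM. Of 218 Vwf UMIs in all endothelial barcodes, 203 were in these 65.

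The same 65 barcodes held less of the scavenging programme. Clec4g was at 1512 CPM against 2883 CPM, Stab2 at 314 CPM against 681 CPM, Lyve1 at 168 CPM against 446 CPM and Fcgr2b at 786 CPM against 1696 CPM, each in barcodes with at least 5 and with no Rspo3 UMIs. Kit, a gene of the pericentral list, was at 225 CPM against 266 CPM and highest, at 450.2 CPM, in the 61 barcodes with 1 to 4 Rspo3 UMIs. Those barcodes had Vwf at 3.95 CPM and Clec4g at 2665 CPM, so Vwf did not rise with Rspo3 in steps. The 65 barcodes comprised 2, 2 and 54 called for hashtags 1, 2 and 3, so these values rest mostly on 1 mouse. The split at 5 UMIs was made after the values were seen.

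**Figure D4:**
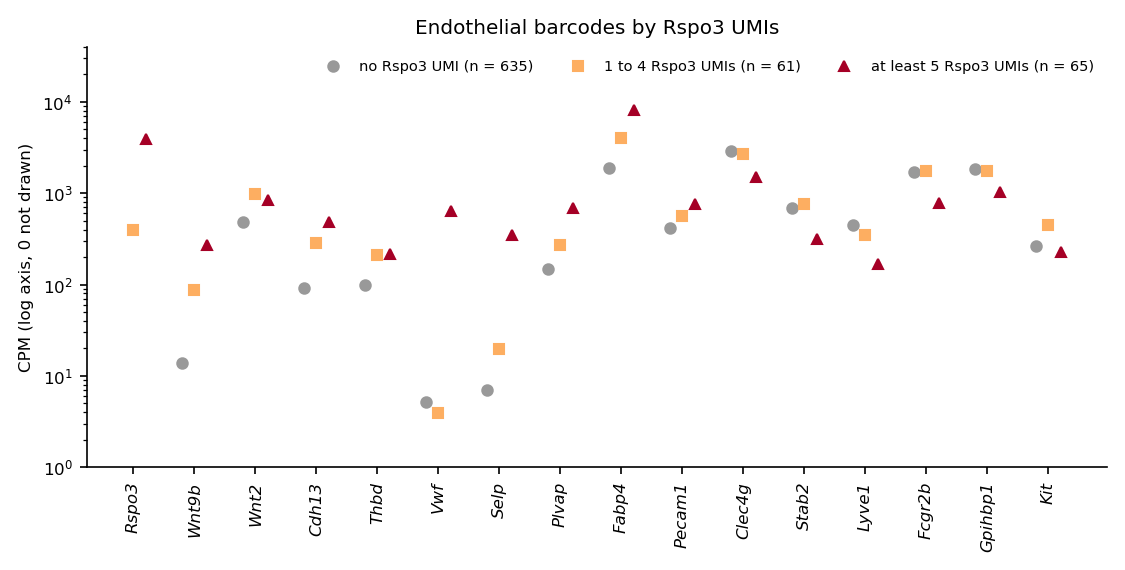
Levels of 16 genes, in CPM on a log axis, in endothelial barcodes with no (grey circles), 1 to 4 (orange squares) and at least 5 (red triangles) Rspo3 UMIs. Rspo3 itself is at 0 in the first group by construction and is not drawn there. Vwf and Selp are high only in the red group, while Clec4g, Stab2, Lyve1, Fcgr2b and Gpihbp1 are lowest in it.

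Mice were compared within the endothelial barcodes as a description, since the genotype cannot be told apart from the animal here. No test was run between genotypes, since the control was 1 mouse. With the deposited pairing 921 of 9611 genes (9.58%) were at least 2-fold above hashtag 1 in both other mice and 624 (6.49%) below, on TMM-scaled values. With the methods' pairing 179 (1.86%) were above hashtag 3 in both other mice and 238 (2.48%) below. Pairs of mice differed 2-fold in both directions throughout: hashtag 2 was above hashtag 1 in 1456 genes (15.1%) and below it in 1483 (15.4%), hashtag 3 was above hashtag 1 in 1434 (14.9%) and below it in 882 (9.18%), and hashtag 3 was above hashtag 2 in 1107 (11.5%) and below it in 561 (5.84%). Hashtags 1 and 2 had 255092 and 236792 endothelial UMIs, so a level of 10 CPM stood for fewer than 3 UMIs there, against 2546683 UMIs in hashtag 3.

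Genes chosen only by the size of the difference rested in hashtags 1 and 2 on few barcodes. In the deposited pairing the 5 genes furthest above hashtag 1 were Cenpf, Top2a, Cxcl2, Prc1 and Birc5, all with 0 UMIs in hashtag 1, which allows up to 11.8 CPM when a count of 0 is taken to allow 3 UMIs, and 99.2% of the Cxcl2 UMIs of hashtag 2 lay in 1 barcode. Of the 5 furthest below, Sprr2b, Nts, Ccl22 and Serpinb9b had every UMI of hashtag 1 in 1 barcode, and Itgae had 14 UMIs in 3 barcodes. In the methods' pairing the 5 furthest above hashtag 3 were Bcl2a1a, Gm6377, Il12b, Bcl2a1b and Wdfy4. These were at 809.5, 104, 2698, 2406 and 77.9 CPM in barcodes of the dendritic gate. Of the 5 furthest below, the globin genes Hbb-bs, Hba-a2, Hba-a1 and Hbb-bt had 1295 of their 1301 UMIs in 1 barcode. The fifth gene was Cyp26b1.

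Cyp26b1, which breaks down retinoic acid, was the exception, with a difference between mice spread over many barcodes. It was at 70.6 CPM (Poisson interval 41.8 to 112) in hashtag 1, 236 CPM (179 to 307) in hashtag 2 and 1068 CPM (1028 to 1109) in hashtag 3. A UMI was found in 7 of 36, 23 of 56 and 525 of 615 endothelial barcodes, against 3 of 165 T and NK and B barcodes, and no barcode of hashtag 3 held more than 0.993% of its UMIs. The order was the same in pericentral barcodes, at 126, 343 and 1186 CPM, and in periportal barcodes, at 45.1, 183 and 866 CPM. It was also the same with the fixed hashtag rule, at 67.8, 261 and 1042 CPM. Hashtag 3 is the D38A mouse in the methods' pairing and a G12V mouse in the deposited pairing, in which Cyp26b1 was above the D38A mouse in both G12V mice.

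To set aside genes seen in few barcodes, a UMI was required in at least 30% of the endothelial barcodes of the mouse or mice with the higher level, a limit set after the values were seen. Of 1801 such genes 10 were at least 2-fold above both other mice in hashtag 3. Besides Cyp26b1 they comprised the adenosine deaminase gene Ada at 27.4, 29.6 and 117 CPM in hashtags 1, 2 and 3, the leukotriene synthase gene Ltc4s at 27.4, 67.6 and 206 CPM and the prostaglandin synthase gene Ptgs1 at 118, 165 and 344 CPM. Wnt2, Thbd and Cdh13, at 133, 245 and 627, 51.0, 50.7 and 129 and 54.9, 76.0 and 159 CPM, are genes of the pericentral list. That list assigned the pericentral profile, so its larger share in hashtag 3 is not independent of their levels. Of the other list genes Rspo3 was at 357, 59.1 and 447 CPM and Wnt9b at 39.2, 12.7 and 45.9 CPM. Kit was at 118, 177 and 293 CPM and Dkk3 at 3.92, 4.22 and 16.5 CPM. Ccm2l and Hipk2 were also among the 10 genes. Under the same limit 1 gene of 1706, Cst3, was below both other mice in hashtag 3, 7 of 1831 were above in hashtag 2, and 79 of 2764 were above and 50 of 1583 below in hashtag 1. The limit does not require that UMIs be spread evenly over barcodes. Cst3 was at 7123, 2982 and 839 CPM in hashtags 1, 2 and 3, with a UMI in 75.0, 87.5 and 83.1% of endothelial barcodes.

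Endothelial barcodes rich in MHC class II RNA took the largest share in hashtag 1. The 5 class II genes took 1.06, 0.385 and 0.0729% of endothelial UMIs in hashtags 1, 2 and 3, yet the median endothelial barcode had 0% in each mouse. A total of 22 endothelial barcodes with 1% or more held 92.8% of all class II UMIs. They had a median of 11043.5 UMIs and a rule share of 0.464%, against 3484 UMIs and 1.63% in the rest. They numbered 5 of 36 in hashtag 1, 3 of 56 in hashtag 2 and 7 of 615 in hashtag 3, and the rest of the 22 were hashtag doublets or negative for every tag. Without them, an alternative added after the values were seen, the deposited pairing gave 1069 genes above (11.1%) and 660 below (6.85%), and the methods' pairing 108 above (1.12%) and 270 below (2.80%), and the 5 genes above hashtag 3 in the methods' pairing had 0 UMIs in hashtag 1 and at most 1 in hashtag 2. Cyp26b1 was then at 95.8, 269 and 1083 CPM.

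The sort was for mVenus, so the transgene was measured in the endothelial barcodes. They held 60 mVenus UMIs, or 18.4 CPM (14.0 to 23.7), in 43 barcodes (5.65%), with at most 3 in 1 barcode. In barcodes outside every gate, which held most of the hepatocyte RNA, the level was 61.1 CPM. In hashtag 3 the endothelial level was 21.6 CPM (16.3 to 28.1) from 55 UMIs, and hashtag 2 gave 8.45 CPM (1.02 to 30.5) from 2 UMIs. In hashtag 1 it was 0 of 255092 UMIs, which allows up to 11.8 CPM at the floor of 3 UMIs used throughout. The level was 0.885 CPM in dendritic barcodes, with 1 UMI, and 0 in T and NK and in B barcodes, which allows up to 10.6 and 14.6 CPM. The T and NK, B and dendritic barcodes had mVenus in 1 of 296 barcodes, and their median depths are given above. Macrophage barcodes were at 30.3 CPM, with 9 UMIs in 2 of 44 barcodes and 8 of them in 1 barcode. Plasmacytoid dendritic barcodes were at 96.3 CPM, with 19 UMIs in 3 of 24 barcodes and 16 of them in 1 barcode, and a hepatocyte list share of 4.92%. Both levels were above the endothelial sum and came mostly from 1 barcode, and neither class entered the sum of 296.

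The mVenus UMIs were also set against hepatocyte RNA in the same barcodes. There were 1.59 mVenus UMIs per 1000 UMIs of the hepatocyte list in endothelial barcodes (1.21 to 2.05), 0.109 in the T and NK, B and dendritic barcodes together (0.00277 to 0.609) and 0.703 in barcodes outside every gate (0.687 to 0.719). The endothelial ratio was thus the highest of the 3 in this sum over mice, but the order differed by mouse. Macrophage and plasmacytoid dendritic barcodes were not among the 3. Macrophage barcodes held more mVenus, at 30.3 CPM, beside a smaller hepatocyte list share of 0.665%, so their ratio was above the endothelial one. Plasmacytoid dendritic barcodes were at 96.3 CPM beside a share of 4.92%. In both classes most mVenus UMIs came from 1 barcode. In hashtag 1 the ratio was 0 in endothelial barcodes (0 to 1.22) and 1.26 outside every gate (1.19 to 1.34). In hashtag 2 it was 0.844 (0.102 to 3.05), from 2 mVenus UMIs, and 0.593 (0.574 to 0.613). Within hashtag 3, which gave 55 of the 60 UMIs, the ratio was 1.82 in endothelial barcodes (1.37 to 2.37) and 1.32 outside every gate (1.06 to 1.61). The T and NK, B and dendritic barcodes of hashtag 3 had 0 mVenus UMIs beside 1753 hepatocyte list UMIs, too few to compare the classes within that mouse. The endothelial barcodes with an mVenus UMI had a median of 6829 UMIs and a median hepatocyte list share of 1.05%, against 3452.5 UMIs and 0.812% without. The part of depth and of hepatocyte RNA in the mVenus level was not tested beyond these values. The Nras row, which also takes up reads of the construct, was at 126 CPM in endothelial barcodes, 67.0 CPM in T and NK barcodes, 96.4 CPM in dendritic barcodes, 309.9 CPM in macrophage barcodes, 593 CPM in plasmacytoid dendritic barcodes and 756 CPM outside every gate.

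**Figure D5:**
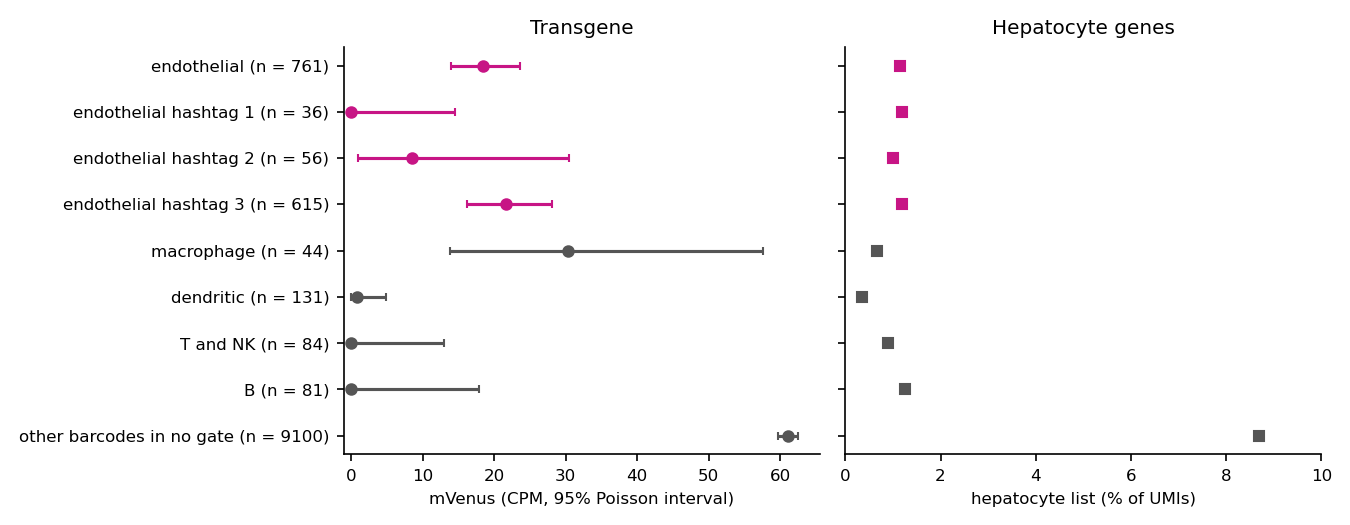
Left, mVenus in CPM with exact Poisson 95% intervals in endothelial barcodes (pink) and in other classes (grey), whose upper end at 0 UMIs is the Poisson bound and so lies above the limit of 3 UMIs given in the text. Right, the percentage of UMIs taken by the 10 hepatocyte genes in the same classes. The endothelial sum lies at 18.4 CPM and 1.16%, below the 61.1 CPM and 8.68% of barcodes outside every gate.

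Few endothelial barcodes held several cell cycle genes, and the same count was not made in the other barcodes. The 10 genes of the cell cycle list took 0.0378% of endothelial and 0.0187% of other UMIs. By hashtag they took 0.00941%, 0.0764% and 0.0331% in endothelial against 0.0190%, 0.0164% and 0.0152% in other barcodes, so hashtag 1 went the other way. Of 9 compared cell cycle genes 1, Mcm5, was higher in each hashtag (0 with TMM scaling), beside 19.0% of all genes (11.1% with TMM). Mcm5 had 2, 2 and 26 UMIs in the endothelial barcodes of hashtags 1, 2 and 3. UMIs of at least 3 of Mki67, Top2a, Cdk1, Birc5, Ccna2, Cenpf and Prc1 were held by 26 of 761 endothelial barcodes (3.42%, 2.24 to 4.97). These were 3 of 56 in hashtag 2, 21 of 615 in hashtag 3 and 0 of 36 in hashtag 1, which allows a share of up to 8.33% at 3 barcodes. Their median depth was 5873.5 UMIs, above the 3514 UMIs of all endothelial barcodes, and the part of depth was not tested.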

How the data were processed

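One 10x Genomics 3′ library of pooled, hashtagged liver cells from 3 mice was analysed. The authors deposited raw UMI counts per gene and barcode and counts of each hashtag tag. The submitters' processing notes name Cell Ranger 2.1.1 and mm10, and the header of the gene matrix gives version 3.0.2. Tags were counted with CITE-seq-Count per the study's methods.

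Hashtags were called with HTODemux (Seurat 5.3.0, quantile 0.99), the only step that found doublets. UMIs were summed per class and mouse (python 3.11.15, numpy 2.4.6, scipy 1.17.1) and given as CPM without the Nras, mVenus and hashtag rows. Ratios used a pseudocount of 1 CPM and genes at 10 CPM or more, and a gene counted as apart when at least 2-fold apart in each of the 3 hashtags. Between mice, values were scaled by TMM (edgeR 4.0.16), with DESeq2 1.42.0 size factors as an alternative. Gates for macrophage, dendritic, plasmacytoid dendritic, T and NK, and B barcodes needed a list share of at least 0.3% and at least 3 genes. Promoter windows came from RefSeq. The counting steps were tested on simulated data. No test was run, since the control was 1 mouse and the classes were set by the same counts.

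The members, gene lists and alternatives were chosen with earlier results of these data known. Named genes were the rule genes, 5 genes for each direction and pairing between mice, and list members. They also comprised the 20 genes highest by their smallest, and the 10 lowest by their largest, log2 ratio over the hashtags at 50 CPM or more. Some list and called genes are not reported here.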

Additional observations from a re-analysis of the deposited data

Results flagged for a closer look

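A total of 122 further barcodes met the 8-gene rule outside the filters on depth and mitochondrial share. They had a median of 799 UMIs and 19.3% mitochondrial UMIs, 59 of them held 20% or more and 95 held under 1000 UMIs or 500 genes. By hashtag they were 7, 9 and 69 for hashtags 1, 2 and 3.

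A tag that marked none of the 3 mice, hashtag 4, had 272 UMIs in endothelial barcodes, spread over 131 barcodes (17.2%). It was found in 20.7% of the endothelial and 20.8% of the other barcodes called for hashtag 3, and in 0 of 36 and 0 of 56 endothelial barcodes called for hashtags 1 and 2.

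For some genes the mice moved in opposite directions between endothelial and other barcodes, and the difference was not tested. With the deposited pairing, the log2 ratio of endothelial over other barcodes in the D38A mouse was -2.13 for Cenpf, -3.05 for Top2a, -1.88 for Prc1 and -3.73 for Birc5, with the opposite sign in both G12V mice, and all 4 had 0 UMIs in the endothelial barcodes of hashtag 1. With the methods' pairing it was -2.96 for Gm6377 and -2.25 for Wdfy4, and 7.54 for Hbb-bs, 6.31 for Hba-a2, 5.65 for Hba-a1 and 6.04 for Hbb-bt, and 1 barcode held 99.5% of the globin UMIs.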

How the results depend on the processing

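The share of endothelial barcodes was 6.72% with a rule share of 0.6% and 6.94% with at least 6 of 8 genes. In hashtag 3 it was 57.5% and 58.5% with these, 66.7% with at least 2000 UMIs and 66.8% with the fixed hashtag rule, which gave 2.07% in hashtag 1. The pericentral share was 63.4% with at least 2000 UMIs. The hepatocyte list took 1.06%, 1.13%, 1.11% and 1.12% of endothelial UMIs with a rule share of 0.6%, at least 6 of 8 genes, under 10% mitochondrial UMIs and at least 2000 UMIs, and 1.19% without the 22 class II barcodes, an alternative chosen after seeing the data. Barcodes meeting another gate numbered 7 with a rule share of 0.6% and 6 without the class II barcodes.

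Genes apart from other barcodes numbered 884 higher and 205 lower at 50 CPM or more, 657 lower with no filter, and 1005 higher and 651 lower with TMM scaling. Leaving out 1 mouse gave 427 to 623 lower, the most without hashtag 1. Genes apart between mice numbered 239 above and 171 below at 50 CPM or more, 1551 and 1159 with no filter, and 179 and 238 with the methods' pairing. With a pseudocount of 5 CPM 572 were above. Leaving out 1 G12V mouse gave 1434 to 1456 above and 882 to 1483 below. Fewer genes or mice entered some of these counts, and otherwise the cause was not tested.

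Against immune barcodes the mean log2 ratio reversed to 0.011 for Clu and 0.0086 for Tspan8. The ratio between genotypes reversed for Ccl22 and Itgae, to 0.85 and 0.61 with a rule share of 0.6% and to 0.90 and 0.43 without class II barcodes. With the methods' pairing it was -2.08 for Cenpf, -2.62 for Top2a, -0.84 for Cxcl2, -2.07 for Prc1, -1.54 for Birc5, 2.34 for Sprr2b, 2.34 for Nts, 1.57 for Ccl22, 1.80 for Itgae and 1.75 for Serpinb9b, each opposite to the deposited pairing. The ratio of hashtags 1 and 3 enters both pairings with its sign turned, so this reversal is in part built in. These ratios are among the reversals counted next. Of the single-gene ratios, zonal shares by mouse and similar values, 732 stayed within their spread, 45 moved without reversing and 16 reversed. Of the values for the class as a whole and the counts of genes apart, 80 stayed and 31 moved.

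No paired analysis between genotypes was made, since the labels number the mice within each genotype and give no pairs. No test was run. Endothelial and other barcodes were compared within each mouse. With 36 and 56 endothelial barcodes in hashtags 1 and 2, a level of 10 CPM rests on fewer than 3 UMIs in either mouse.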
